A study of Mus musculus with 6 samples.

Results

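The sarcomeric myosin heavy chain genes Myh3, Myh8, Myh2, Myh1, Myh4 and Myh7 were followed in parietal bone of the mouse skull roof. Probe sets were taken by name: every one whose platform annotation gave a single gene symbol, that symbol being 1 of these 6 of the 18193 genes so named, which gave 9 of the 45101 probe sets on the array, of which 34945 carried 1 symbol. The animals were 10-day-old 13del-tg mice, which carry a Col10a1-13del transgene and are labelled as having bone overgrowth, and wild-type littermates, called control here. The labels name neither the strain nor the sequence that drives the transgene. Each genotype has 3 animals by the labels, with an array apiece, but the columns deposited for 13del-tg 1 and control 1 were identical in all 45101 probe sets. That array, called the shared array, is shown apart, and the comparison set 13del-tg 2 and 3 against controls 2 and 3. Other pairs of columns held the same value in 0.115% to 0.213% of probe sets.

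Muscle myosin is built from paired heavy chains, each with a motor head that pulls on actin and a long rod that packs into the thick filament, with light chains bound at the neck. The heavy chain gene in use sets much of a fibre's speed and changes during development. Myh3 encodes the embryonic form and Myh8 the perinatal form, both of which are replaced after birth in most skeletal muscles. Myh2, Myh1 and Myh4 encode the fast forms IIa, IIx and IIb of mature fibres, and Myh7 the slow form of type I fibres, which is also a cardiac ventricular myosin. In the RefSeq gene table (GRCm38.p6) the embryonic, fast and perinatal genes lie side by side on chromosome 11, in the order Myh3, Myh2, Myh1, Myh4, Myh8, with a few non-coding genes between them, among them Myhas. Myh7 lies on chromosome 14, beside the non-coding gene Mhrt.

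The promoters of the neighbouring fast and perinatal genes share letters that the windows of the embryonic and slow genes do not hold. They are shown because these genes are neighbours, and the levels of these genes given below did not follow a single order of arrays. A search for the longest word common to the promoters of Myh2, Myh1, Myh4 and Myh8 (250 bases before to 50 after the annotated start, RefSeq, GRCm38.p6, plus strand) found a run of 14 bases, and a second search upstream of it found a run of 9. The stretches below, from chr11:67170822-67170945 for Myh2, chr11:67199862-67199985 for Myh1, chr11:67237574-67237697 for Myh4 and chr11:67276990-67277113 for Myh8, are written 5′ to 3′ with the shorter word and then the longer word in capitals.
Myh2: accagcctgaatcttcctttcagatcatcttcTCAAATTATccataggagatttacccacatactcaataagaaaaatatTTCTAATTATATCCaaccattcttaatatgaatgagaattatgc
Myh1: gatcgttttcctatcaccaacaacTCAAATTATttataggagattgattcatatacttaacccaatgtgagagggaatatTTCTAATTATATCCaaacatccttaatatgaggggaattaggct
Myh4: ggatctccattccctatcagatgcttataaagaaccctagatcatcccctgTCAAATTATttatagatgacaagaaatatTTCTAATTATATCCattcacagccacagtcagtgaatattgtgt
Myh8: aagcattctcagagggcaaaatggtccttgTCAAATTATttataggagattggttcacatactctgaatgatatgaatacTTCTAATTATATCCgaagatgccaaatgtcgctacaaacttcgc

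The longer word, TTCTAATTATATCC, was in 4 of 32851 promoter windows of the table on either strand (0.0122%), and those 4 were the promoters it had been derived from. It began 125 bases before the annotated start of Myh2, 160 before that of Myh1, 158 before that of Myh4 and 54 before that of Myh8. The shorter word, TCAAATTAT, was in 59 windows (0.18%) and lay 20 to 47 bases upstream of the longer one. Other short motifs were less particular to the cluster. The E-box CANNTG, the letters bound by myogenic bHLH factors, was in 72.3% of all windows and in those of Myh3, Myh4, Myh7 and Myh8, TATAAAA was in 5.48% and in those of Myh3, Myh2, Myh1 and Myh4, and the MEF2 consensus was in 3.19% and in those of Myh1, Myh4 and Myh8, each on either strand. The MEF2 match overlaps the end of the shorter word in each of these 3 windows, so these are not separate features. These matches are descriptions of letters and not of binding.

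The array's own checks come before the myosin values. Col10a1, the gene of the transgene, had signals of 15689 and 11584 on 13del-tg 2 and 3, against 149.8 and 158.2 on controls 2 and 3, and 152.2 on the shared array (log2 difference 6.31, SE 0.23, limma adjusted p = 9.45e-05). Bone was plainly present on every array, with Col1a1, the main collagen of bone, at 46123 and 48236 in 13del-tg, 42618 and 46275 in control and 29585 on the shared array. The X-inactivation transcript Xist had a signal of 15206 on 13del-tg 3 and of 29.9 to 84.5 on the other arrays, so that array differed from the rest in sex-linked expression. Each array had a trimmed mean signal of 500.003, and the number of arrays, 2 a genotype, limits every value below. Nothing in the labels says that replicates came from separate litters, and p-values measure the spread between these arrays.

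Skeletal muscle transcripts were abundant in these bone samples, and for each tested myosin the gap between the controls was wider than the difference between the genotypes. Control 3 had the lowest value of the 5 distinct arrays in 7 of the 7 myosin probe sets bright enough to be tested, an order found in 18.1% of all tested probe sets. In 6 of the 7, all but the Myh4 probe set, control 3 lay below every other array by at least 1 on the log2 scale, against 1.52% of all tested probe sets. The embryonic, perinatal, fast IIa, fast IIx and slow genes all took part. Values are log2(signal + 16), in which 1 unit is a doubling for bright genes and less for dim ones. A probe set was tested when its mean over the 5 distinct arrays reached the 40th percentile of all probe sets, 6.28, a signal of 61.9. Fewer muscle cells and less RNA per muscle cell cannot be told apart in such samples.

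**Figure D1:**
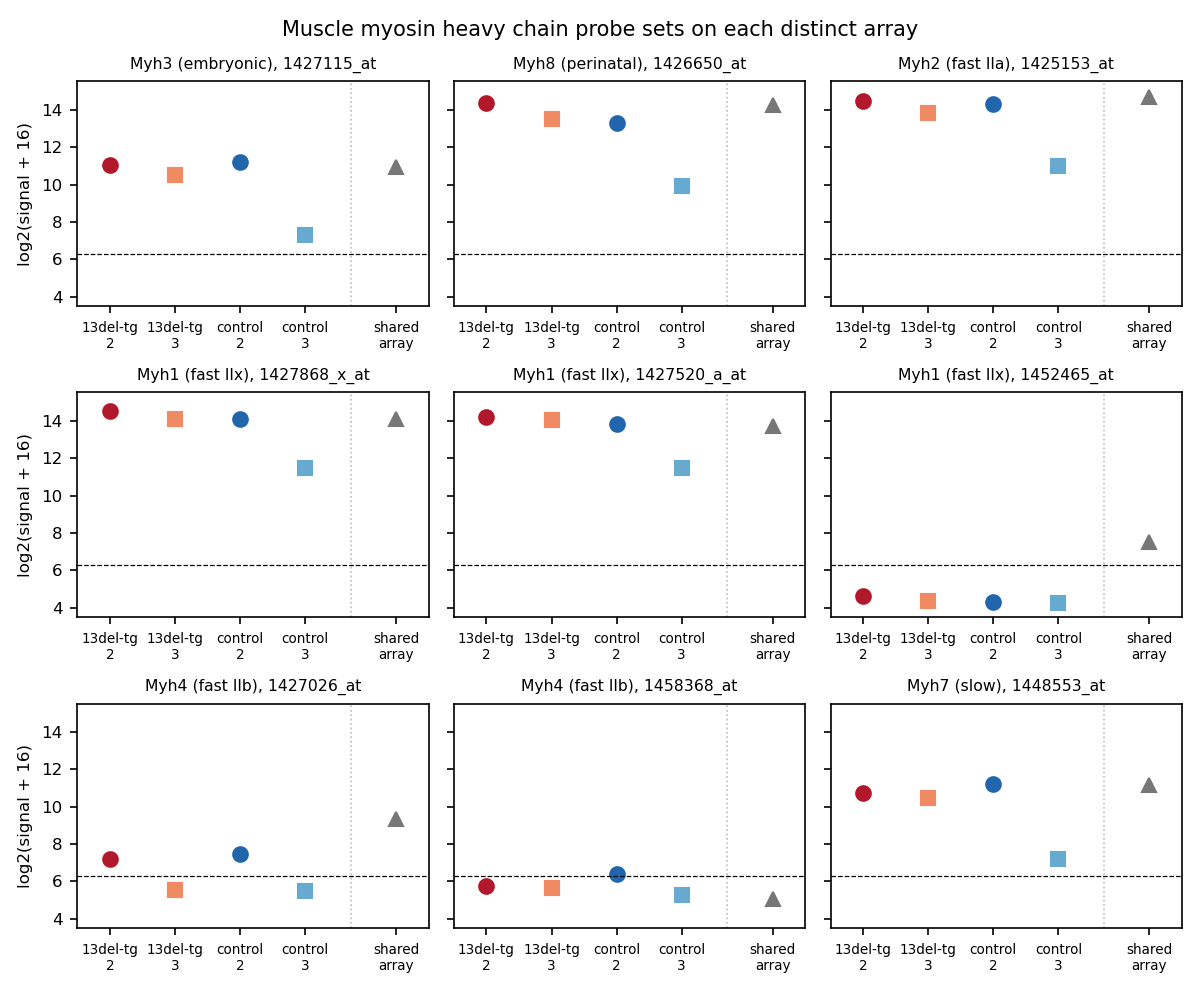
Level of each of the 9 myosin heavy chain probe sets, as log2(signal + 16) on the vertical axis, on 13del-tg 2 and 3, controls 2 and 3 and, right of the dotted line, the shared array; each point is 1 array and the dashed line is the filter level of 6.28. Control 3 is the lowest point in the 7 tested probe sets, and the other 2, 1 of Myh1 and 1 of Myh4, lie mostly below the dashed line.

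The developmental forms were read well above the filter level on most arrays. Myh3, the embryonic heavy chain (probe set 1427115_at), had signals of 2104 and 1421 on 13del-tg 2 and 3, against 2349 and 143.2 on controls 2 and 3, with 1953 on the shared array. On the log2 scale these were 11.05 and 10.49 in 13del-tg, 11.21 and 7.31 in control and 10.94 on the shared array. Control 2 was the highest array and control 3 the lowest, so both 13del-tg arrays lay inside the range of the controls. The difference was 1.51 (SE 1.01, 95% interval -0.81 to 3.83, limma adjusted p = 0.882).

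Myh8, the perinatal heavy chain (1426650_at), had another order of arrays than Myh3. Its signals were 20953 and 11394 on 13del-tg 2 and 3, against 10096 and 942 on controls 2 and 3, and 19483 on the shared array. In log2 terms it had 14.36 and 13.48 in 13del-tg, 13.30 and 9.90 in control and 14.25 on the shared array. Here both 13del-tg arrays and the shared array lay above both controls, though 13del-tg 3 exceeded control 2 by only 0.17. The difference, 2.31 (SE 0.90, 95% interval 0.25 to 4.38), was the largest among the members and did not pass the threshold (limma unadjusted p = 0.0324, adjusted p = 0.88).

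Of the fast forms, Myh2, the IIa heavy chain (1425153_at), had log2 levels of 14.48 and 13.80 on 13del-tg 2 and 3, against 14.32 and 11.01 on controls 2 and 3, and 14.69 on the shared array. Its signals ran from 2045 on control 3 to 26492 on the shared array. The groups overlapped, since 13del-tg 3 lay below control 2, and the difference was 1.48 (SE 0.86, 95% interval -0.51 to 3.46, limma adjusted p = 0.88). On signal + 16, control 3 was 9.89-fold below control 2.

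Myh1, the IIx heavy chain, was read by 3 probe sets, of which 2 were tested. The probe set 1427868_x_at had 14.50 and 14.08 in 13del-tg, 14.06 and 11.50 in control and 14.10 on the shared array. The probe set 1427520_a_at had 14.18 and 14.03 in 13del-tg, 13.84 and 11.49 in control and 13.73 on the shared array. In both, the 13del-tg arrays lay above both controls, by 0.02 in the first and 0.19 in the second at the narrowest gap. Their differences were close, at 1.51 (SE 0.67, 95% interval -0.04 to 3.06) and 1.44 (SE 0.61, 95% interval 0.03 to 2.86), both with a limma adjusted p of 0.88. The suffix of the first marks probes that can also bind related sequences, so a share of its signal may belong to another fast heavy chain, a share that was not tested. The third, 1452465_at, was annotated to the same accession as the second yet was dim, with signals of 9.3 and 5.0 in 13del-tg, 4.0 and 3.0 in control and 169.6 on the shared array. It did not reach the filter level on the 4 compared arrays and was not tested.

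Myh4, the IIb heavy chain of the fastest fibres, was read near the filter level. Its probe set 1427026_at had signals of 131.7 and 30.9 in 13del-tg, 161.6 and 29.0 in control and 622.4 on the shared array. On the log2 scale these were 7.21 and 5.55 in 13del-tg, 7.47 and 5.49 in control and 9.32 on the shared array. The replicate 3 arrays of both genotypes were below the filter level, the replicate 2 arrays were above it, and the shared array was the brightest. The difference was -0.10 (SE 0.76, 95% interval -1.86 to 1.65, limma adjusted p = 0.989). The second Myh4 probe set, 1458368_at, was not tested, with signals of 37.2 and 34.8 in 13del-tg, 68.6 and 22.9 in control and 17.3 on the shared array. The shared array was thus the highest in one Myh4 probe set and the lowest in the other.

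Myh7, the slow heavy chain (1448553_at), had signals of 1689 and 1385 in 13del-tg, 2361 and 132 in control and 2245 on the shared array. Its log2 levels were 10.74 and 10.45 in 13del-tg, 11.21 and 7.21 in control and 11.14 on the shared array. Control 2 was the highest array, as for Myh3, and the ratio of control 2 to control 3, taken on signal + 16, was 16.1, the widest of the tested members. The 13del-tg arrays lay inside the controls' range, with a difference of 1.38 (SE 1.03, 95% interval -0.99 to 3.75, limma adjusted p = 0.884).

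Between the genotypes, the fitted difference was above 0 for 6 of the 7 tested myosin probe sets and below 0 for 1, of Myh4, and the median was 1.48 against -0.07 over all 27022 probe sets tested. None passed an adjusted p of 0.05 by limma (0 higher and 0 lower), where 0.037% of all probe sets passed in either direction. At an unadjusted p under 0.05, 2 were higher in 13del-tg, Myh8 and the Myh1 probe set 1427520_a_at, where 1.42% of all were. Both 13del-tg arrays lay above both controls in 3 of the 7, those of Myh8 and Myh1, and this held for 12.6% of all probe sets. An exact two-sided permutation test of 2 arrays against 2 cannot give less than p = 0.333, which these 3 reached.

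Leaving out control 3 turned the sign of 3 of these differences, those of Myh2, Myh3 and Myh7, and left that of the other 4. Without it, 3 of the 7 were positive and 4 negative, with a median of -0.18. Myh8 then had 0.61, the Myh1 probe sets 0.27 and 0.23, Myh2 -0.18, Myh3 -0.44, Myh7 -0.62 and Myh4 -1.09. Without control 2, when control 3 stood alone for the genotype, all 7 were positive with a median of 3.13 (Myh8 4.01, Myh3 3.45, Myh7 3.38). Leaving out 13del-tg 2 gave a median of 1.24 and leaving out 13del-tg 3 one of 1.73. Each of these fits has 1 array in a group, which is taken to vary as the others do.

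**Figure D2:**
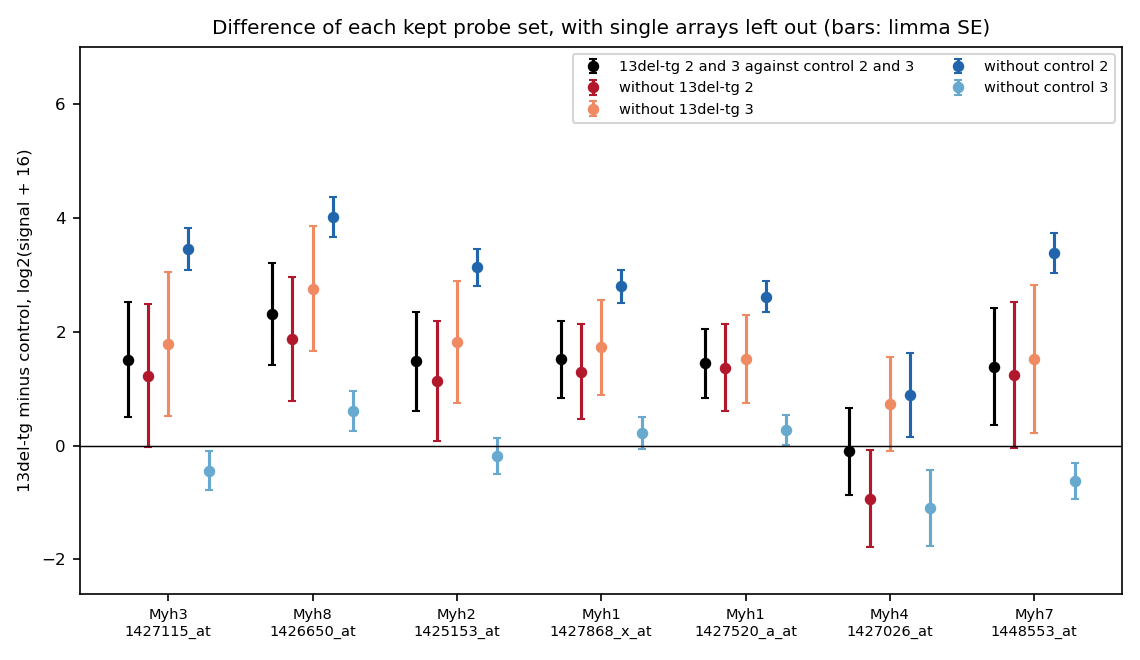
Difference of each tested probe set, 13del-tg minus control in log2(signal + 16), with limma standard errors as bars; black points use all 4 arrays and coloured points leave out the array named. The light blue points, without control 3, lie near or below 0, from -1.09 for Myh4 to 0.61 for Myh8, and the dark blue points, without control 2, lie highest, up to 4.01 for Myh8.

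Set against control 2, the members stood at different places on the 13del-tg arrays. On 13del-tg 2, Myh8 had 1.05, the Myh1 probe sets 0.44 and 0.34, Myh2 0.17, Myh3 -0.16, Myh4 -0.27 and Myh7 -0.48. On 13del-tg 3 Myh8 had 0.17, the Myh1 probe sets 0.02 and 0.19, Myh2 -0.52, Myh3 -0.72, Myh7 -0.76 and Myh4 -1.92. The perinatal gene and fast IIx thus stood above the embryonic and slow genes on both. On the shared array Myh4 had 1.85, Myh8 0.95, Myh2 0.38, the Myh1 probe sets 0.04 and -0.11, Myh7 -0.07 and Myh3 -0.26. On control 3 the gene with the smallest deficit was Myh4, at -1.98 and below the filter level, followed by the Myh1 probe sets at -2.35 and -2.57, Myh2 at -3.31, Myh8 at -3.40, Myh3 at -3.89 and Myh7 at -4.01.

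Since control 3 was low in all of these genes, the level of one member was set against that of another within each array, in 6 pairs chosen after the values had been seen. Myh8 minus Myh7, against control 2, was 1.53 on 13del-tg 2 and 0.94 on 13del-tg 3, with 0.61 on control 3 and 1.02 on the shared array. Myh8 minus Myh3 was 1.21 and 0.89 in 13del-tg, with 0.49 on control 3 and 1.21 on the shared array. Myh8 minus Myh2 was 0.88 and 0.69 in 13del-tg, with -0.09 on control 3 and 0.57 on the shared array. In these 3 pairs both 13del-tg arrays lay above both controls, with an exact two-sided permutation p of 0.333, the smallest possible, and 0.667 after Benjamini-Hochberg adjustment over the 6 pairs. All 3 share the Myh8 probe set, which by itself had that order, so they are not separate observations. How often other pairs of genes had that order was not counted. The other 3, Myh1, Myh2 and Myh3 each against Myh7, overlapped, with differences between genotypes of 0.13, 0.10 and 0.13. Such a pair shows unequal change only, and the level of one probe set cannot be read against another's.

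**Figure D3:**
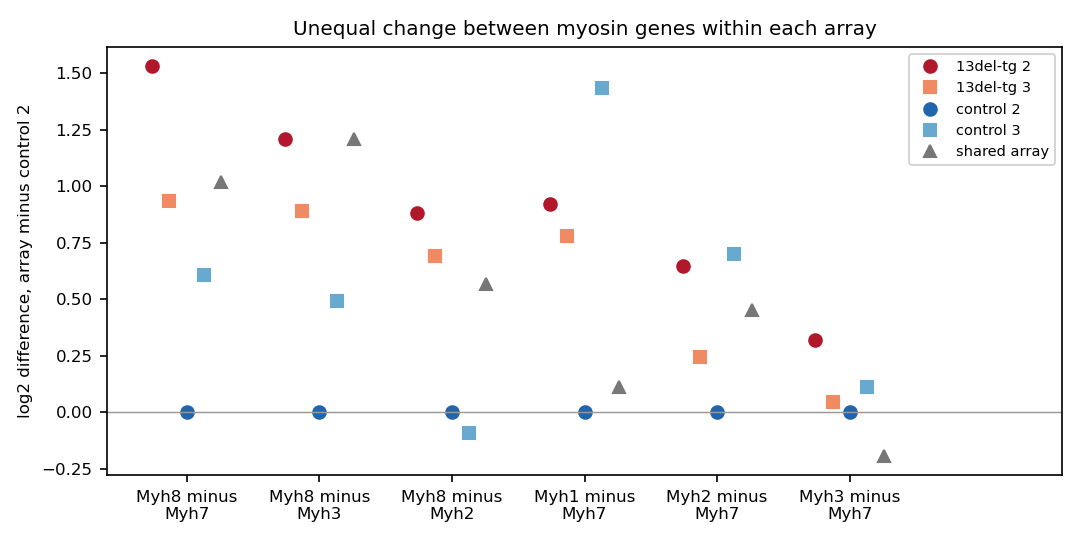
Difference between 2 myosin genes within an array, in log2(signal + 16) and set to 0 on control 2, for the 6 pairs on the horizontal axis; each point is 1 array. In the 3 pairs led by Myh8 the 13del-tg points lie above both control points, and in the 3 pairs against Myh7 on the right the groups overlap, with control 3 at 1.44 for Myh1 minus Myh7.

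Most of the light chains, troponins and other partners of these heavy chains were also lowest on control 3, with Myl6b and Tpm3 as exceptions, against 18.1% of all tested probe sets. In the list of fast fibre genes the difference was above 0 for 11 of 11 tested genes (median 1.81), and control 3 was the lowest array in all 11. By limma 0 of the 11 passed, against 4 at an unadjusted p under 0.05 (1.42% of all tested probe sets were higher at that p), and both 13del-tg arrays lay above both controls in 5 (12.6% of all). Pvalb, the calcium-binding parvalbumin of fast fibres, had signals of 11097 and 6442 in 13del-tg, 5326 and 697.2 in control and 14407 on the shared array, a difference of 2.12 (SE 0.77). Tnnc2, the fast troponin C, had 1.42 (SE 0.59), Myl1, a fast light chain, 1.23 (SE 0.53), and Myoz1, a Z-disc protein of fast fibres, 1.90 (SE 0.70). Without control 3 the list's median was 0.27, with 10 of 11 positive.

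The slow fibre list is given with and without control 3. The difference was above 0 for 8 of its 9 tested genes (median 1.19), with none past the threshold or at an unadjusted p under 0.05, and control 3 was lowest in 8. The exception was Myl6b, a light chain also in the list of developing muscle, whose signals were 81.6 and 64 in 13del-tg, 106.8 and 129.2 in control and 127.6 on the shared array (difference -0.60, SE 0.39, limma adjusted p = 0.882). Control 3 was its highest array and 13del-tg 3 its lowest, with no overlap of the groups. A separation in this direction, with 13del-tg the lower group, was found in 23.0% of all tested probe sets. Without control 3 the slow list's median was -0.36, with 3 of 9 positive, as Myh7 itself had -0.62. Casq2, the slow and cardiac calsequestrin, had 1.53 (SE 0.74), Myoz2 1.94 (SE 0.95), Mybpc1, slow myosin-binding protein C, 1.80 (SE 0.93) and Myl3, the slow ventricular light chain, 1.68 (SE 0.93). Set against control 2, the slow list's median was -0.31 and -0.42 on 13del-tg 2 and 3 and 0.51 on the shared array, while the fast list's was 0.58 and -0.12 and 0.57. The difference between the lists was not tested.

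Genes of developing muscle gave a median of 1.16 over 10 tested genes, 9 of them positive, and 0.08 without control 3. Myl4, the embryonic light chain, had signals of 1753 and 1934 in 13del-tg, 1555 and 929.9 in control and 1813 on the shared array (difference 0.61, SE 0.28). It was the 1 gene of this list with both 13del-tg arrays above both controls, an order found in 12.6% of all tested probe sets. Chrna1, a subunit of the acetylcholine receptor, had 1.77 (SE 0.82), the myogenic factor Myod1 1.21 (SE 0.63) and the fusion protein gene Mymk 1.59 (SE 0.84). The shared array was the highest of the 5 in 8 of the 10, among them Myod1 at 715.4, against 427.1 and 150.8 in 13del-tg and 191.5 and 50.9 in control. It was also the highest in 7 of 9 slow fibre genes, 5 of 11 fast fibre genes and 9 of the 15 sarcomere list genes below. The share of all tested probe sets with the shared array highest was not counted. By limma 0 of the 10 passed, and 0 reached an unadjusted p under 0.05.

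A further list held muscle genes not sorted by fibre type, most of them of the sarcomere. In it 14 of 15 tested genes were positive, with a median of 1.70 and 0.21 without control 3. By limma 0 passed, and 4 were higher at an unadjusted p under 0.05, as were 1.42% of all tested probe sets. Acta1, skeletal actin, had signals of 43939 and 39338 in 13del-tg, 34653 and 8600 in control and 36999 on the shared array, a difference of 1.27 (SE 0.53). Ckm, muscle creatine kinase, had 1.70 (SE 0.69), Ttn, the giant spring protein titin, 2.03 (SE 0.86), and Tpm1, a tropomyosin of many cell types, 0.78 (SE 0.31). The exception was Tpm3, a tropomyosin also made outside muscle, at -0.02 (SE 0.19).

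**Figure D4:**
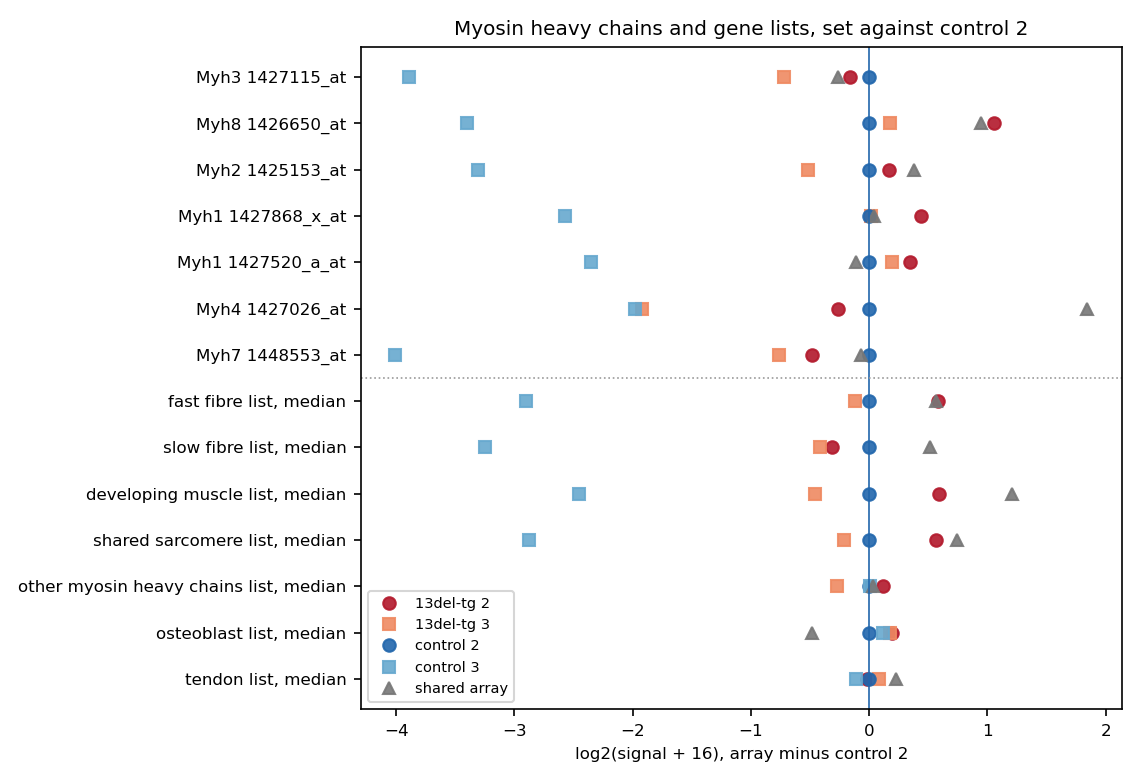
Level of each array minus control 2, in log2(signal + 16), for the 7 tested myosin probe sets above the dotted line and for the medians of gene lists below it; each point is 1 array. Control 3 lies at -1.98 to -4.01 for the myosin probe sets and at -2.45 to -3.25 for the 4 muscle lists, and at 0.00, 0.12 and -0.11 for the other myosin heavy chain, osteoblast and tendon lists; the chondrocyte and adipocyte lists, not drawn, had -2.16 and -0.95.

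Among the remaining heavy chain genes control 3 was not the low array. Of the list of 8 other heavy chain genes, 6 had a probe set and 5 were tested, 1 positive and 4 negative, with a median difference of -0.09, and control 3 was the lowest array in 0 of the 5. Myh9, a non-muscle heavy chain, had signals of 6982 and 9267 in 13del-tg, 8013 and 11634 in control and 6881 on the shared array (difference -0.26, SE 0.24). Myh10, another non-muscle form, had -0.09 (SE 0.19), the smooth muscle form Myh11 0.05 (SE 0.35), Myh14 -0.04 (SE 0.37) and Myh7b, a sarcomeric form, -0.20 (SE 0.48). By limma 0 of the 5 passed, and 0 reached an unadjusted p under 0.05. Myh6, the cardiac alpha form, was too dim to be tested, at 15.0 and 40.2 in 13del-tg, 70.5 and 35.7 in control and 194.6 on the shared array, and the other heart markers Nppa, Nppb and Myl7 were at 75.5 or below on all arrays.

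Proteins that fold the heavy chain or turn it over were mixed. Of 6 tested genes 3 were positive, with a median of 0.11, and none passed the threshold. Unc45b, the myosin chaperone of striated muscle, had signals of 1118 and 627.1 in 13del-tg, 511.9 and 301.1 in control and 1353 on the shared array, with a difference of 1.06 (SE 0.37, limma unadjusted p = 0.02, adjusted p = 0.88). Trim63, the ubiquitin ligase MuRF1, had 1.38 (SE 0.67), and the general chaperone genes Unc45a and Hsp90aa1 had -0.47 (SE 0.33) and -0.12 (SE 0.23). The remaining tested genes, Smyd1 and Fbxo32, had 0.32 (SE 0.69) and -0.11 (SE 0.33).

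Markers of other tissues are given beside these results, and several of them also differed between arrays. The 5 measured osteoblast markers had summed signals of 119888 and 130958 in 13del-tg, 107148 and 118495 in control and 76923 on the shared array, and control 3 was the lowest array for 0 of the 5. The 3 tendon markers summed to 9944 and 10070 in 13del-tg, 10026 and 6796 in control and 9520 on the shared array, most of it Tnmd. The 11 fast fibre genes summed to 241826 and 161773 in 13del-tg, 164325 and 25817 in control and 208114 on the shared array. Among satellite cell markers Myf5, a factor of muscle precursors, was at 196 and 143.4 in 13del-tg, 176.2 and 21.8 in control and 794.6 on the shared array. Cdh15, a cadherin of muscle precursors, was at 389.8 and 405.2 in 13del-tg, 390.0 and 465.2 in control and 565.5 on the shared array. Of the 5 tested markers in that list 2 had a positive difference and 3 a negative one (median -0.10). Pax7 had 0.25, Vcam1 -0.27 and Calcr -0.34, and control 3 was the lowest array for 2 of the 5. The 4 smooth muscle markers all had a positive difference (median 0.21), and none passed by limma. Control 3 was the lowest array for Tagln, Acta2 and Cnn1, and not for Myh11. Both 13del-tg arrays lay above both controls in 2, Tagln (0.47) and Acta2 (0.36), as in 12.6% of all tested probe sets. The 5 chondrocyte markers summed to 8318 and 1878 in 13del-tg, 21407 and 5201 in control and 10117 on the shared array, and their median against control 2 was -0.91 and -4.22 on 13del-tg 2 and 3 and -2.16 on control 3. All 5 had a negative difference (median -1.39) and none passed by limma. The 2 adipocyte markers had a median of -0.95 on control 3 but differed in their order of arrays. Fabp4 was at 8938 and 8439 in 13del-tg, 11335 and 4875 in control and 9837 on the shared array (difference 0.22). Adipoq was at 1212.5 and 822 in 13del-tg, 1712 and 1052.6 in control and 2029 on the shared array (difference -0.42). Control 3 was the lowest array for Fabp4 and 13del-tg 3 for Adipoq. Markers of the pineal gland and photoreceptors summed to 250.1 and 263.8 in 13del-tg, 3374 and 6897 in control and 348.5 on the shared array, with a median difference of -4.36 over 5 of 5 negative genes, and Chgb and Tph1 passed by limma (adjusted p = 0.017 and 0.038). The neuronal gene Snap25 passed as well, at 18.5 and 33.4 in 13del-tg, 462.1 and 733.0 in control and 24.2 on the shared array (adjusted p = 0.038). Of the 4 tested genes of the brain list, 1 was positive and 3 were negative, with a median difference of -0.69. Besides Snap25 at -3.86, these were Syt1 at -1.33, Gfap at -0.04 and Mbp at 0.29. The erythroid genes Alas2 and Epb42 had differences of -1.69 and -2.55 and did not pass (limma adjusted p = 0.0771 and 0.232). Control 3 was the highest array for the 5 pineal and photoreceptor markers and the lowest for 11 of 11 fast fibre genes. How far the muscle content of the dissected pieces set the myosin differences was not tested.

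The profiles of the members over the 5 distinct arrays were compared with those of 3380 other genes that varied by at least 1 on the log2 scale, as the root mean square difference of values centred on each gene's own mean. Myh3 was closest to Myh7 (0.17), and Myh7 was closest to Myl2, the slow ventricular light chain (0.14), and then to Myh3. Myh1 was closest to the fast fibre genes Tnnc2 (0.13) and Mylpf (0.14) and to Dusp26 (0.14), and Myh2 to Ankrd23 (0.07), Srl, a sarcoplasmic reticulum protein (0.12), and Cox8b, a muscle form of a respiratory chain subunit (0.12). Myh8 was closest to Pdlim3, a Z-disc protein (0.16), and to the giant proteins Neb (0.16) and Ttn (0.18). Myh4 had no close match: its nearest genes, Kcna5, Ppargc1a and 2310015D24Rik, were at 0.51 to 0.56, and the other 5 members were at 1.08 to 1.32. These are descriptions over 5 arrays that all share the low control 3, and they carry no test.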

How the data were processed

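Per the labels' protocols, RNA was taken with TRIZOL from cryosections of dissected parietal bone and amplified to biotin-labelled antisense RNA. The authors deposited linear intensities, made with MAS5 per the submitters' processing notes. They were used as log2(signal + 16), unscaled. After removal of 64 control probe sets, the 27022 of 45037 at or above the 40th percentile of the mean over the 5 distinct arrays were fitted. limma 3.58.1 under R 4.3.3 (lmFit, then eBayes with a trend in variance) gave 13del-tg minus control, with two-sided p-values adjusted by Benjamini-Hochberg over all 27022 and called at 0.05. There were 2 residual and 6.00 prior degrees of freedom. The code was tested on simulated data. Every probe set of a member was reported. A list gene was represented by its brightest tested probe set, and the 4 genes of each list with the smallest unadjusted p were described. Tpm3, Myf5, Cdh15, Tnmd, Col1a1, Xist, Myl6b and Fabp4 were picked after their values were seen. So were Chgb, Tph1, Snap25, Alas2, Epb42, the heart markers and the fifth gene of the other heavy chains. The other tested genes of the satellite cell, brain, adipocyte and heavy chain folding lists were added with their values known, to complete those lists. The smooth muscle and osteoclast lists were likewise added with their values known. A probe set annotated to several genes was given to none of them. The members and lists were chosen with earlier results of these data known. Alternatives covered the pseudocount, filter, normalization, variance model, replicate block, left-out arrays and place of the shared array.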

Additional observations from a re-analysis of the deposited data

Results flagged for a closer look

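The shared array, which enters no comparison, lay above both controls in 5 of the 9 myosin probe sets. The share of all probe sets with that order was not counted. In the 7 tested ones control 3 was the lowest array, so there the order only means lying above control 2, which held in 4. The Myh1 probe set 1452465_at, also among the 5, was too dim to be tested. Its signal was 26492 for Myh2, 19483 for Myh8, 17571 for the Myh1 probe set 1427868_x_at, 622.4 for the Myh4 probe set 1427026_at and 169.6 for the Myh1 probe set 1452465_at. For Myh8 it lay with the 13del-tg arrays, whereas for Col10a1 it lay with the controls. Its genotype was not inferred from these values. No group here has enough arrays for a test of outlying samples.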

How the results depend on the processing

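The count of myosin probe sets past the threshold, 0, was 0 under every alternative run except the replicate block and the fit without control 2. With the replicate number as a block, 6 passed. With 1 residual and 384 prior degrees of freedom, that fit called 330 probe sets higher and 338 lower over the whole table, against 2 and 8 without the block; the fit without control 2 called 199 and 43, median centring 3 and 21, robust eBayes 2 and 18, and no filter 1 and 0. The labels do not say that a number marks a shared litter or day, and the deviations of same-numbered arrays had a correlation of 0.22 across probe sets. Leaving out 1 array gave counts from 0 to 6, the 6 without control 2. The members' median difference of 1.48 ran from 0.95 (shared array as control only) to 1.79 (Xist level as a covariate) under the alternatives that keep all 4 arrays. Xist was bright on 13del-tg 3 alone, so that covariate acts much as leaving this array out does. Without 13del-tg 3 the median was 1.73 and the Myh4 difference 0.72. Leaving out 1 array, the difference ran from -1.09 to 0.89 for Myh4, from -0.18 to 3.13 for Myh2, from -0.44 to 3.45 for Myh3 and from -0.62 to 3.38 for Myh7. The Myh4 difference, -0.10, turned to 0.11 with quantile normalization, 0.081 with arrays centred on the median, 0.74 with the Xist covariate and 0.88 when the shared array counted as 13del-tg alone, and the cause was not tested. Centring on the median moved the median of all probe sets from -0.07 to 0.11, and quantile normalization moved it to 0.00012. The pseudocounts, filters, variance models and 1 probe set per gene changed no sign. The 60th percentile filter removed Myh4. On 2 of the 4 compared arrays the Myh4 signal was below the filter level.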

Other observations

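A pair of probe sets is annotated to both Myh7 and Myh6 and stands outside the comparisons above. The brighter, 1448554_s_at, had signals of 412.2 and 311.1 in 13del-tg, 758.9 and 78.2 in control and 916.8 on the shared array, an order in which control 3 was again the lowest. The dimmer, 1448827_s_at, had signals from 2.6 to 18.3 on the 5 distinct arrays.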
